A study of Saccharomyces cerevisiae with 5 samples.

Results

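The 52 yeast genes described here encode nucleoporins, the proteins of the nuclear pore complex, and the soluble factors that carry cargo through it. They were found by matching a list of 52 gene names to the symbols of the spots on the arrays: 50 matched directly, and NUP59 and PRP20 matched through their synonyms ASM4 and SRM1. They are 52 of 5583 named genes, and were represented by 66 of 7680 spots on the design used for arrays 1 to 3 and by 104 of 12800 spots on the design used for arrays 4 and 5. Of the 52 genes, 31 encode nucleoporins and 21 encode transport factors. On each of 5 arrays with 2 channels, cDNA made from RNA that was immunoprecipitated with zzYra1 from Saccharomyces cerevisiae was hybridised against cDNA from a control immunoprecipitate with the zz tag only. Channel 2 held the zzYra1 immunoprecipitate on arrays 1, 2 and 5, and channel 1 held it on the other 2, arrays 3 and 4. The sources used here do not give strain, growth conditions or the origin of the RNA of each array, so p-values below reflect the spread among these 5 arrays alone, and that spread may be technical.

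The nuclear pore complex is a channel through the nuclear envelope. Its scaffold is a set of ring-shaped subcomplexes, and its transport channel is filled by nucleoporins with repeats of phenylalanine and glycine (FG). Karyopherins bind their cargo and these repeats, and the small GTPase Ran, in its nuclear and cytoplasmic forms, sets the direction of transport. Messenger RNA leaves the nucleus by a different carrier, Mex67 with Mtr2, which the adaptor Yra1 helps to load onto the transcript and which also passes the FG repeats. The arrays measured the mRNAs of the pore and transport genes in the immunoprecipitates, not their proteins.

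All values below are log2 ratios of the channels, as means over a gene's spots, given as the distance from the median gene of the same array, so that 1 unit is a factor of 2. A value of 0 is the median gene of an array and not equal amounts in the immunoprecipitates. Before this centring the median spot of arrays 1 to 5 lay at 2.66, -1.14, 0.16, 1.59 and 1.59 log2 units. The sources used here do not name the numerator, so a sign does not say which one held more of an RNA. Where arrays of different orientation are combined, results are given under the channel reading, in which the signs of arrays 3 and 4 are turned, and under the other reading, in which the deposited signs already run one way. Values of single genes are given with the deposited signs. For these, agreement of sign between arrays of different orientation holds in the other reading only. The genes with a value made up between 19.8% and 97.6% of those on an array, and the standard deviation over genes was between 0.91 and 1.14 log2 units on arrays 1, 2, 3 and 5 and 2.51 on array 4. YRA1 itself had a value on array 3 only, at 0.63. Without intensities, signal over background cannot be given, and precision is limited by the number of arrays.

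Pore and transport genes had a deposited value about as often as the other genes. On array 1 a value was present for 26 of 52 of them (50.0%, 95% Wilson interval 36.9% to 63.1%), while other genes had one in 44.3% of cases. On array 2 it was present for 24 of 52 (46.2%, interval 33.3% to 59.5%), while 51.1% of other genes had one, and on array 3 for 51 of 52 (98.1%, interval 89.9% to 99.7%), against 97.6%. On array 4 there were 12 of 52 (23.1%, interval 13.7% to 36.1%) and 23.9% of other genes. On array 5 there were 10 of 52 (19.2%, interval 10.8% to 31.9%), against 19.8%. The share in other genes lay within the interval on each of the 5 arrays. The intervals cover counting error only and take genes as independent. Nucleoporin genes were present in 51.6%, 41.9%, 96.8%, 29.0% and 16.1% of cases on arrays 1 to 5, and transport factor genes in 47.6%, 52.4%, 100%, 14.3% and 23.8%. These 2 classes had overlapping intervals on every array.

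**Figure D1:**
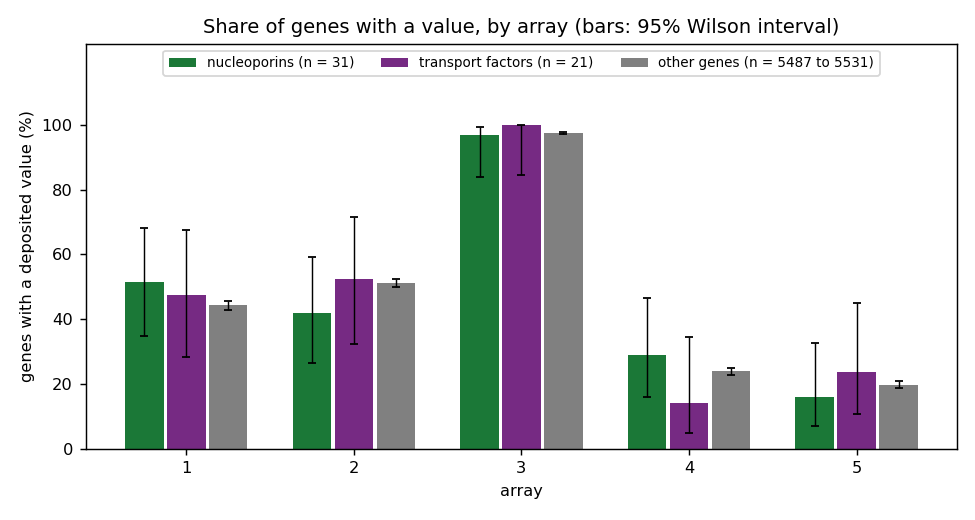
Share of genes with a deposited value (%, y axis) on each array (x axis) for nucleoporin genes, transport factor genes and all other genes, with 95% Wilson intervals as error bars. Bars reach close to 100% on array 3, and on each array the intervals of nucleoporins and transport factors include the share of other genes.

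No pore or transport gene had a value on all 5 arrays. Of the 52 genes, 7 had a value on 4 arrays, 15 on 3, 20 on 2 and 10 on 1, and none lacked a value throughout. The 10 genes with a single value were NSP1, which had it on array 1, and NUP57, NUP159, MLP2, NUP157, KAP120, SRP1, SXM1, CRM1 and RNA1, which had it on array 3. Among other genes 2.64% had a value on all 5 arrays, 10.3% on 4 and 19.0% on 1.

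**Figure D2:**
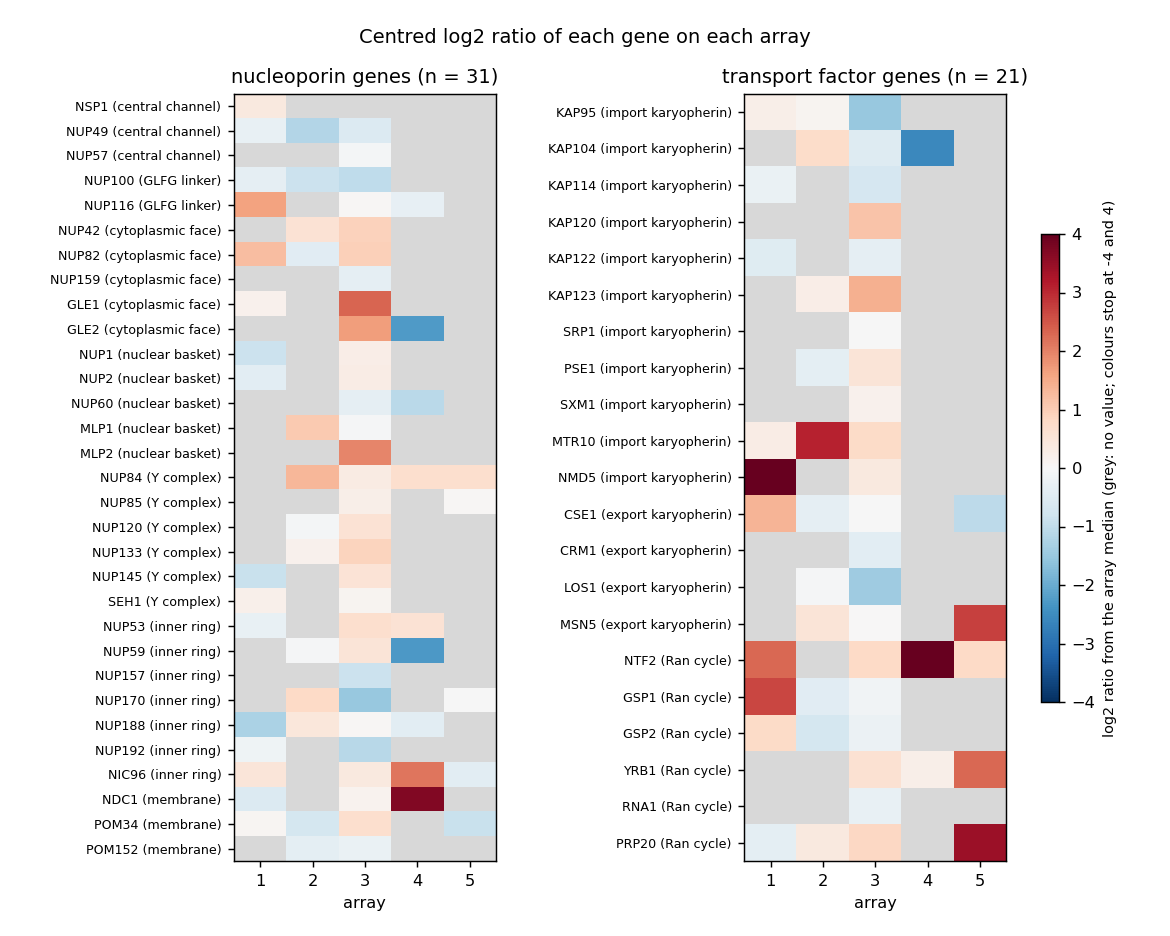
Centred log2 ratio (colour) of each of 31 nucleoporin genes and 21 transport factor genes (rows, ordered by role) on arrays 1 to 5 (columns), with grey for no value. Few rows hold 1 colour throughout, and the deepest colours are NMD5 on array 1, NTF2 and NDC1 on array 4 and PRP20 on array 5.

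On arrays 1, 2, 3 and 5 most pore and transport genes with a value lay within 1 log2 unit of the median gene, and on array 4, where values spread most, 5 of 12 did. On array 1, 6 of 26 were more than 1 log2 unit above the median, where 14.6% of all genes were, and 1 of 26 was as far below, where 4.2% of all genes were. On array 2 there were 3 of 24 above and 1 below, against 12.8% and 8.13% of all genes. On array 3 there were 5 of 51 above and 5 below, against 12.4% and 13.4%. On array 4 there were 3 of 12 above and 4 below, against 32.7% and 35.1%, and on array 5 there were 3 of 10 above and 1 below, against 20.8% and 15.4%. The medians of the genes with a value were 0.13, 0.04, 0.14, -0.05 and 0.35 on arrays 1 to 5, where the median of all genes is 0 by construction.

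The FG nucleoporins of the central channel, NSP1, NUP49 and NUP57, form the transport barrier. NUP49 was measured on arrays 1, 2 and 3, at -0.31, -1.18 and -0.54, and was below the median on each. It was the lowest of the 52 genes on array 2. NSP1 lay at 0.39 on array 1, and NUP57 at -0.07 on array 3. NUP100 and NUP116 are paralogues with repeats of the GLFG type, and NUP100 was the lower of the pair on both arrays they share. NUP100 lay at -0.36, -0.87 and -1.01 on arrays 1, 2 and 3, below the median on each, while NUP116 lay at 1.61, 0.06 and -0.34 on arrays 1, 3 and 4. NUP100 lay 1.96 below NUP116 on array 1 (-1.96) and 1.07 below on array 3 (-1.07).

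Of the genes of the cytoplasmic face, NUP82 and GLE2 differed in sign between arrays. NUP82, which anchors the cytoplasmic filaments, lay at 1.22, -0.44 and 0.95 on arrays 1, 2 and 3. GLE1, the activator of the RNA helicase Dbp5 at the end of mRNA export, lay at 0.19 on array 1 and at 2.33 on array 3. GLE1 was the highest of the 52 genes on array 3, with 13 of all genes higher. GLE2, a WD-repeat protein that binds Nup116 and is needed for mRNA export, lay at 1.68 on array 3 and at -2.27 on array 4, which share an orientation. The 13 measured spots near its spot on array 4 had a median of -3.57, and measured from such nearby spots GLE2 lay at 1.87 on array 3 and 1.30 on array 4, above them on both. NUP42, an FG nucleoporin that binds Gle1, lay at 0.58 and 0.93 on arrays 2 and 3, and NUP159, of the same face, at -0.36 on array 3.

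The nuclear basket genes had a value on 1 or 2 arrays each. MLP2, one of a pair of long filament proteins of the basket, lay at 1.95 on array 3, its only value and the next highest of the 52 genes there. Its paralogue MLP1 lay at 1.04 on array 2 and at -0.06 on array 3, so that MLP1 was 2.01 below MLP2 on the array they share (-2.01). NUP1 lay at -0.85 on array 1 and 0.28 on array 3, NUP2 at -0.42 and 0.30 on the same arrays, and NUP60 at -0.37 on array 3 and -1.06 on array 4. NUP1 and NUP2 are FG nucleoporins of the basket, and NUP60 tethers Nup2 and the filament proteins. The deposited signs of NUP1 and NUP2 differed between their arrays, which differ in orientation, so each kept 1 sign in the channel reading.

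NUP84 was the Y complex gene with most values. It belongs to the outer ring of the scaffold and lay at 1.33, 0.33, 0.68 and 0.67 on arrays 2 to 5, above the median on all 4. Its pair of spots on array 4 lay at -0.05 and 1.41, a gap wider than the distance of their mean from the median. The spots of other genes near these 2 had medians of 1.83 and 1.64. Measured from nearby spots with the gene's own second spot counted among them, NUP84 lay at -0.83 on array 4. The other genes of the complex had a value on 2 arrays each, always including array 3. There all 6 genes were above the median, between 0.12 for SEH1 and 0.91 for NUP133. The SEH1 value on array 3 is the mean of spots at -0.83 and 1.07. Measured from nearby spots, 4 of the 6 lay above 0 on array 3, with NUP85 at -0.02 and NUP120 at -0.03. Outside array 3, NUP85 lay at 0.04 on array 5, NUP120 at -0.09 and NUP133 at 0.17 on array 2. On array 1, SEH1 lay at 0.20 and NUP145, whose product is cleaved into an FG nucleoporin and a Y complex subunit, at -0.90.

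Inner ring genes spread on both sides of the median. NIC96, the scaffold protein that holds the central channel complex in place, lay at 0.47, 0.40, 2.15 and -0.42 on arrays 1, 3, 4 and 5. NUP188 lay at -1.26, 0.44, 0.05 and -0.42 on arrays 1 to 4, and on array 1 it was the lowest of the 52 genes, with 36 of all genes lower. Neither gene kept 1 sign. Measured from nearby spots, NIC96 lay at 0.36, 0.83, 1.93 and 0.70 on its arrays, and NUP188 at -1.12, -0.43 and -0.59 on arrays 1 to 3. Each of the pair thus had 1 deposited sign when measured in that way. NUP170 lay at 0.80, -1.52 and -0.01 on arrays 2, 3 and 5, and its paralogue NUP157 at -0.85 on array 3. NUP53 lay at -0.30, 0.66 and 0.59 on arrays 1, 3 and 4, and its paralogue NUP59 at -0.03, 0.53 and -2.29 on arrays 2, 3 and 4. The last 2 genes were 0.13 apart on array 3 and 2.88 apart on array 4. NUP192, a large scaffold protein, lay at -0.16 on array 1 and -1.12 on array 3.

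Of the membrane nucleoporins, which anchor the pore in the envelope, NDC1 had the widest spread. It lay at -0.55 and 0.14 on arrays 1 and 3 and at 3.72 on array 4, where 98 genes were higher. POM34 lay at 0.06, -0.70, 0.68 and -0.89 on arrays 1, 2, 3 and 5, with a range of 1.57 around 0. POM152 lay at -0.39 and -0.27 on arrays 2 and 3.

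Among the import karyopherins, NMD5 on array 1 and MTR10 on array 2 stood furthest from the median. NMD5, an importer of transcription factors, lay at 5.39 on array 1 and at 0.40 on array 3. MTR10, the importer of the mRNA-binding protein Npl3, lay at 0.30, 3.07 and 0.77 on arrays 1 to 3 and was above the median on each. On array 2, 28 of all genes lay higher than MTR10. KAP95, the importin beta of yeast, lay at 0.23, 0.12 and -1.52 on arrays 1 to 3. On array 3 it was the lowest of the 52 genes by a narrow margin, at -1.524 against -1.518 for NUP170. Measured from nearby spots the order turned, with NUP170 at -1.29 and KAP95 at -1.12. SRP1, importin alpha and the partner of KAP95, lay at -0.0028 on array 3. KAP104, which imports mRNA-binding proteins, lay at 0.73, -0.52 and -2.59 on arrays 2, 3 and 4, and was the lowest of the 52 genes on array 4.

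The other import karyopherins were measured on array 3 and at most 1 more array. KAP123, an importer of ribosomal proteins, lay at 0.27 on array 2 and 1.42 on array 3, and its relative PSE1 at -0.39 and 0.52. PSE1 was thus below KAP123 on both arrays, by 0.66 (-0.66) and 0.90 (-0.90). On array 3 the spot of KAP123 lay among 20 spots with a median of 1.23, and measured from nearby spots the order turned there, with PSE1 at 0.87 and KAP123 at 0.18. KAP114 lay at -0.26 and -0.67 on arrays 1 and 3, and KAP122 at -0.49 and -0.36. KAP120 lay at 1.15 and SXM1, a paralogue of NMD5, at 0.18 on array 3.

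The export karyopherins carry proteins and transfer RNA out of the nucleus. CSE1, which returns importin alpha to the cytoplasm, lay at 1.36, -0.35, -0.02 and -1.03 on arrays 1, 2, 3 and 5, and its values on arrays of the same orientation ran in opposite ways. MSN5, the exporter of phosphorylated proteins, lay at 0.53, 0.01 and 2.73 on arrays 2, 3 and 5. CRM1, the exporter for proteins with leucine-rich signals, lay at -0.41 on array 3, and LOS1, the transfer RNA exporter, at -0.05 and -1.43 on arrays 2 and 3. LOS1 had 2 spots on array 3, at -2.36 and -0.49.

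NTF2, PRP20 and YRB1, all of the Ran cycle, each had a value of more than 2 log2 units on arrays 1, 4 or 5. NTF2, which brings Ran back into the nucleus, lay at 2.31, 0.80, 4.20 and 0.80 on arrays 1, 3, 4 and 5, above the median on all 4. On array 4 it was the highest of the 52 genes, with 71 of all genes higher. That value rests on 1 of its 2 spots there, as the other had no value. PRP20, the nuclear exchange factor that loads Ran with GTP, lay at -0.38, 0.40, 0.84 and 3.43 on arrays 1, 2, 3 and 5. On array 5 only 3 of 1099 genes were higher than PRP20, and its spots there lay at 3.06 and 3.79. YRB1, a Ran-binding protein of the cytoplasm, lay at 0.61, 0.24 and 2.29 on arrays 3, 4 and 5, above the median on each. RNA1, the activating protein of the Ran GTPase, lay at -0.29 on array 3.

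GSP1 and GSP2 encode nearly identical forms of Ran and can bind the same cDNA, so their values are not independent and the signal of one may include the other. GSP1 lay at 2.67, -0.46 and -0.16 on arrays 1 to 3, and GSP2 at 0.78, -0.69 and -0.22. The pair had the same sign on each array and was 0.07 and 0.23 apart on arrays 3 and 2, but 1.89 apart on array 1. The value of GSP1 is the mean of spots at -0.10 and 5.44 on array 1, and of spots at -1.22 and 0.30 on array 2. Measured from nearby spots, GSP1 lay at -0.33 and GSP2 at 1.02 on array 1, with opposite signs. Both were below 0 on arrays 2 and 3 in that measure. No other member had spots as far apart as those of GSP1 on array 1. The gap was between 0.02 and 1.90 log2 units for every other gene of the 52 with at least 2 measured spots on an array.

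Some of the extreme values belonged to stretches of consecutive spot numbers in which every measured spot was extreme. For this, each spot was set beside the measured spots of other genes within 10 spot numbers on either side. The sources used here do not give the slide layout. Nearby therefore means close in spot number, and that such spots lay side by side on the slide is assumed. The values of genes measured from nearby spots, or set against neighbours, come from a related step that was planned. It used the same window but counted a gene's own other spots as nearby where they fell within it. Around the NMD5 spot on array 1, at 5.39, all 5 measured spots lay between 4.87 and 5.68, with a median of 5.36. Around the GSP1 spot at 5.44 on the same array, all 5 lay between 5.36 and 6.15, whereas around the GSP1 spot at -0.10 they lay between -0.73 and 1.31. The NDC1 spots on array 4, at 2.85 and 4.59, lay beside 5 spots between 3.15 and 4.62. The NMD5 spot and the higher spots of GSP1 and NDC1 thus lay within the range of their surroundings, and the lower NDC1 spot lay below it. Over all 113 values of the 52 genes that could be measured from nearby spots, 22 had the opposite sign there: 3 of 25 on array 1, 4 of 23 on array 2, 9 of 51 on array 3, 5 of 9 on array 4 and 1 of 5 on array 5, where 17.1%, 15.4%, 14%, 24.6% and 19.6% of all genes did. On array 4 these were GLE2, NUP60, NUP84, NUP59 and NDC1. The part of slide position in these values was not tested.

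Other extreme values stood apart from their surroundings. MTR10 on array 2, at 3.07, had 6 measured spots near it between -0.57 and 1.42. GLE1 on array 3, at 2.33, had 20 between -1.56 and 1.08, and MLP2, at 1.95, had 19 between -4.48 and 0.85. NIC96 on array 4, at 2.08 and 2.21 in its 2 spots, had nearby values of at most 0.96, and NUP116 on array 1, at 1.61, had 11 between -0.99 and 0.33. KAP104 on array 4, at -2.59, had 7 between -0.02 and 1.94. For the Ran cycle genes the surroundings were sparse: NTF2 had 3 measured spots nearby on array 4, between -1.42 and -0.70, and 1 on array 1, at 0.53. On array 5, PRP20 and YRB1 had none and MSN5 had 2, between -2.32 and -1.81.

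**Figure D3:**
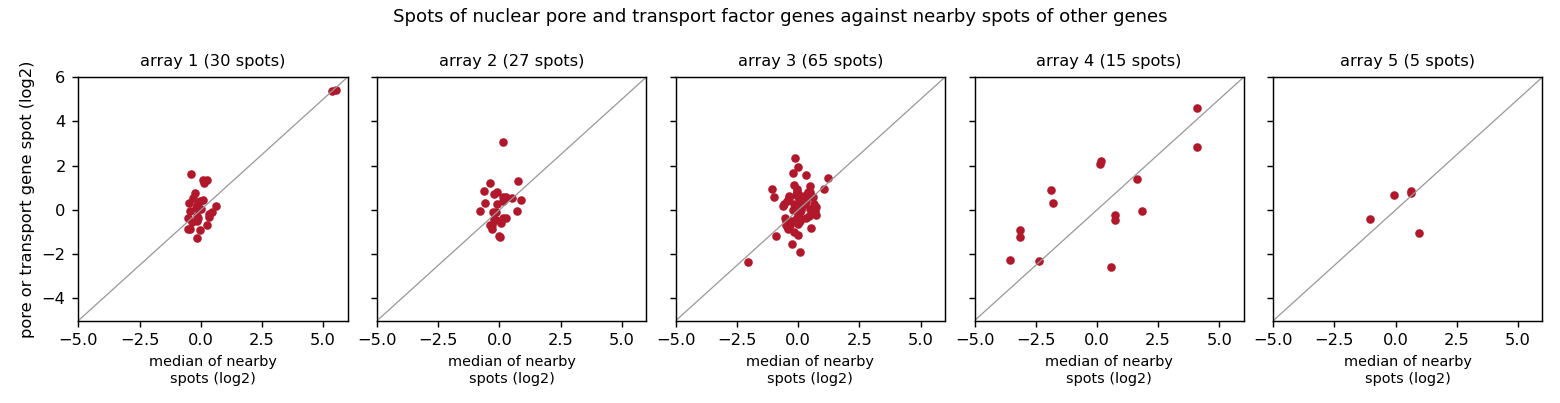
Each point is 1 spot of a pore or transport gene with at least 5 measured spots of other genes nearby: its centred log2 ratio (y axis) against the median of those spots (x axis), with 1 panel per array and the line of equality. On array 1 the points at the top right are GSP1 at 5.44 and NMD5 at 5.39, on the line, and on array 2 MTR10 at 3.07 stands above it.

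Nucleoporin and transport factor genes were then set against each other. Nucleoporin medians on arrays 1 to 5 were -0.23, -0.03, 0.26, -0.34 and -0.01, and transport factor medians were 0.54, 0.12, -0.0028, 0.24 and 2.29. Nucleoporins were therefore lower than transport factors by the median on arrays 1, 2, 4 and 5, with differences of -0.77, -0.15, -0.58 and -2.30, and higher on array 3, by 0.26. The medians rest on 16, 13, 30, 9 and 5 nucleoporin genes and on 10, 11, 21, 3 and 5 transport factor genes. No test was made of this difference, because genes are not replicates. Its sign was the same on arrays 1, 2 and 5, which share an orientation. Arrays 3 and 4, which share the other, differed from each other in sign, at 0.26 and -0.58. With spots measured from their neighbours, the difference was 3.86 on array 4, where 1 transport factor gene was left, and 1.57 on array 5, where 2 were left, so the sign turned on these arrays. On array 1 it was -0.50 without GSP1 and NMD5, an alternative chosen after seeing the data.

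**Figure D4:**
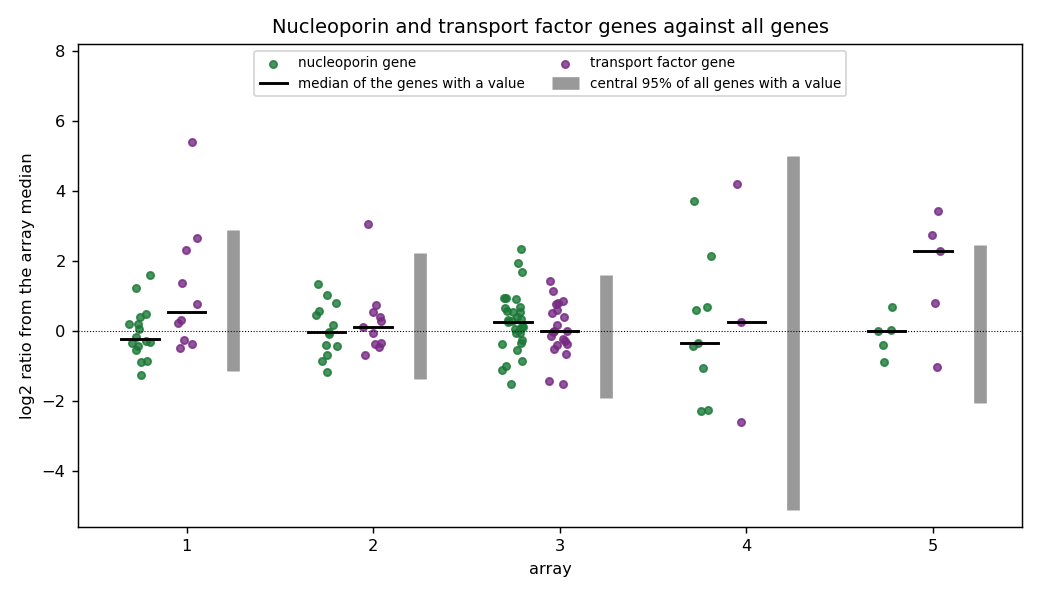
Centred log2 ratios (y axis) of nucleoporin genes (green) and transport factor genes (purple) on each array (x axis), with the median of each class as a black line and the central 95% of all genes with a value as a grey bar. On array 5 the transport factor median of 2.29 lies above that of the nucleoporins at -0.01, and on array 4 the grey bar is the widest.

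Array 5 gave the widest gap between the classes. Its 5 transport factor genes were PRP20 at 3.43, MSN5 at 2.73, YRB1 at 2.29, NTF2 at 0.80 and CSE1 at -1.03. Its 5 nucleoporin genes were NUP84 at 0.67, NUP85 at 0.04, NUP170 at -0.01, NIC96 at -0.42 and POM34 at -0.89. Each of these genes had 2 spots on array 5. Both were measured for PRP20, YRB1, NTF2 and POM34, and only 1 for the rest, MSN5 among them. Of the transport factor genes 3 were more than 1 log2 unit above the median, where 20.8% of all genes were, and of the nucleoporin genes 0 were. On array 4, of the same day by the labels, none of PRP20, MSN5 and CSE1 had a value, NTF2 lay at 4.20 and YRB1 at 0.24.

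Genes measured on 4 or more of the 5 arrays were tested together in limma, in a model that holds the orientation as a term, and 7 of the 725 genes tested were pore or transport genes. None of the 7 passed an adjusted p of 0.05 in either reading, and none of the 725 genes did (0%). Unadjusted limma p-values under 0.05 were given to 19 genes in the channel reading (2.62%) and to 25 in the other (3.45%), among which was 1 of the 7. NTF2 was that gene, at 2.03 ± 0.67 log2 units in the other reading (SE, 95% interval 0.49 to 3.57, limma adjusted p = 0.903). In the channel reading NTF2 lay at -0.47 ± 0.67 (adjusted p = 0.905). In the settings tried it passed only in the other reading without array 3, at 2.88 ± 0.67 (limma adjusted p = 0.00087), a setting in which 80 of 602 genes passed (13.3%) and array 4 was the only array of its orientation. With the arrays also scaled to equal spread, chosen after seeing the data, NTF2 lay at 1.95 and did not pass (limma adjusted p = 0.995).

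The remaining 6 genes had intervals that included 0 in each reading. In the other reading PRP20 lay at 0.99 ± 0.81, NUP84 at 0.75 ± 0.51 and NIC96 at 0.65 ± 0.55 (limma, SE), with intervals of -0.85 to 2.84, -0.40 to 1.91 and -0.61 to 1.91. POM34, CSE1 and NUP188 lay at 0.08, -0.02 and -0.30. In the channel reading the 6 lay between -0.62 for NIC96 and 0.25 for NUP84. Over the 725 genes the 95% interval, before adjustment, reached 1.32 log2 units to either side of the value (median). For a gene with an interval of that width, a smaller fitted value did not reach an unadjusted limma p under 0.05. The size of a true difference that could be detected was not computed. A call after adjustment needed more, and NTF2 at 2.03 in the other reading did not pass.

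**Figure D5:**
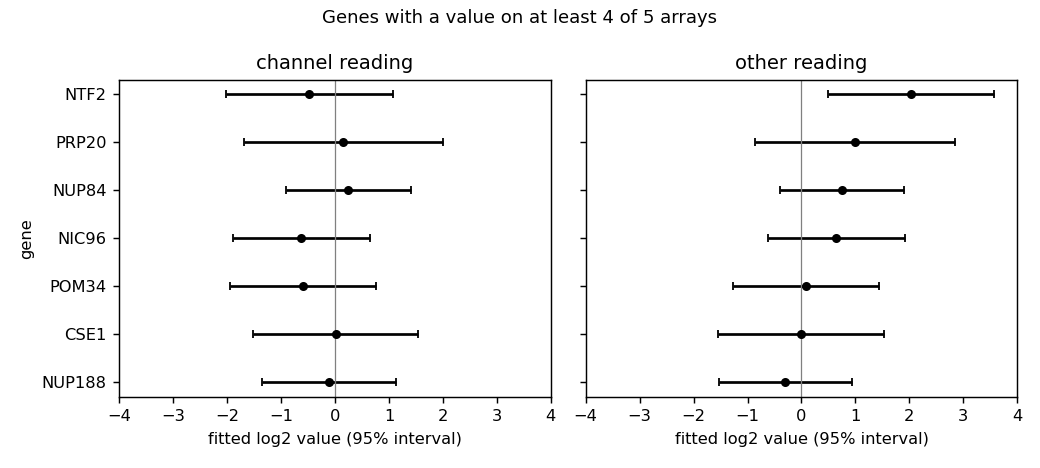
Fitted log2 value with its 95% interval (x axis) for the 7 pore and transport genes measured on 4 or more arrays (y axis), in the channel reading on the left and the other reading on the right. The interval of NTF2 in the other reading, 0.49 to 3.57, is the one that does not include 0, before adjustment for the number of genes.

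Fits of fewer arrays gave no call either. Over arrays 1, 2 and 5, which have 1 orientation, 3 of 281 genes tested were pore or transport genes: PRP20 lay at 1.15 ± 0.81, POM34 at -0.51 ± 0.39 and CSE1 at -0.0068 ± 0.56 (limma, SE; lowest adjusted p 0.831). None of the 281 genes passed (0%) and 6 had an unadjusted p under 0.05 (2.14%). Over arrays 3 and 4, of the other orientation, 12 of 1300 genes tested were, 6 above 0 and 6 below. NTF2 was the highest at 2.50 ± 1.36, followed by NDC1 at 1.93, and KAP104 was the lowest at -1.56 (limma adjusted p of 0.958 or more). The SE of 1.36 was the same for all 12, as limma pooled the variance over genes here, and is not the spread of NTF2 itself. With spots measured from their neighbours 9 of the 12 were left and 5 of these turned sign, NDC1 to -0.45, GLE2 to 1.59 from -0.29, NUP60 to 1.12 from -0.72, NUP59 to 0.28 from -0.88 and NUP84 to -0.27 from 0.51. NTF2 was not among the 9. None of the 1300 passed (0%), and 65 had an unadjusted p under 0.05 (5%).

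In the table of arrays 1 to 3, 11 of 1282 genes tested were pore or transport genes, and MTR10 was the one with an unadjusted p under 0.05. It lay at 1.38 ± 0.59 in the other reading (limma adjusted p = 0.965) and at 0.86 ± 0.71 in the channel reading (adjusted p = 0.913). NUP100 lay at -0.75 ± 0.41 and NUP49 at -0.67 ± 0.42 in the other reading, and GSP1 at 0.68 ± 0.64. None of these passed, and none of the 1282 genes did in either reading (0%), while 45 had an unadjusted p under 0.05 in the other reading (3.51%) and 55 in the channel reading (4.29%).

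Signs across arrays were compared for the 22 pore and transport genes measured on 3 or more arrays. With the deposited signs, 7 of 22 had the same sign on every array with a value, where 18.7% of 2297 genes did. These were NTF2, NUP84, YRB1, MSN5 and MTR10, above the median, and NUP49 and NUP100, below it. With the signs of arrays 3 and 4 turned, 4 of 22 did, KAP95, KAP104, NDC1 and NUP53, where 21.1% of all such genes did. The signs of arrays 3 and 4 enter both tallies, so a gene with values in both orientations can be in at most one of them. With spots measured from their neighbours, a comparison added after seeing the data, 18 genes had 3 or more values. Of these, 8 of 18 had 1 sign as deposited, against 20.9% of all such genes, and 4 of 18 with the signs turned, against 21.6%. NUP49, NUP100 and MTR10 stayed in the first tally, and KAP104 and NUP53 in the second. NUP84 and KAP95 were in neither, and NTF2, YRB1 and MSN5 had fewer than 3 such values. The first tally gained NIC96, NUP188, GSP1, PRP20 and NDC1, of which NDC1 had been in the second. The second gained NUP59 and NUP116.

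A list of 23 other genes of the pore and of transport, which holds partners of the nucleoporins, Ran cofactors and the mRNA export receptor, was read in the same way. Of these 22 were matched to the array tables, and SUS1 was not matched. Of the genes outside the 52, 44.3%, 51.1%, 97.6%, 23.9% and 19.8% had a value on arrays 1 to 5. Of the list, 11, 9 and 21 of 22 had a value on arrays 1 to 3. On arrays 4 and 5, whose design held 21 of the list, 3 and 2 did. Only SRC1, of the inner nuclear membrane, had a value on 4 arrays, at -0.24, -1.80, 0.63 and 1.70 on arrays 1, 3, 4 and 5, and it did not pass in the channel reading (0.66 ± 0.63, limma adjusted p = 0.905) or in the other (0.07 ± 0.63, adjusted p = 0.985). MEX67, the export receptor that Yra1 binds, lay at -1.07 on array 1 and 0.16 on array 3. None of the list passed in either direction in the fits described above.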

How the data were processed

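The authors deposited 1 column of log10 ratios of the channels per array, in a table of arrays 1 to 3 and a table of arrays 4 and 5. The labels name no scale. Of 400 deposited values drawn per array, 27.5% to 94.5% gave quotients of integers (denominators up to 3000) if read as log10, but at most 1% if read as log2 and 2% if read as natural logs, so they were taken as log10. The sources used here do not give the scanner, dyes, background correction or why values are missing. Ratios were multiplied by 3.32 to give log2, a gene's spots were averaged, and the array's median gene was subtracted, without loess, quantile or scale normalisation. Symbols were updated through gene identifiers to the R64 gene table (5578 and 5534 genes matched). A row whose spot number is not numeric was dropped (1 row). No coordinates are given because the files name no build.

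Genes measured on 4 or more arrays were fitted in limma 3.58.1 (R 4.3.3) with a term for orientation, and smaller fits used genes with a value on every array of the fit. P-values were adjusted by Benjamini-Hochberg over all genes of a fit, with a threshold of 0.05. The genes named are every gene in the fit over 5 arrays, those with an unadjusted p under 0.05 elsewhere, those on 3 or more arrays, the extremes of each array and the paralogue pairs, and the rest of the 52 are given by role. Members and lists were chosen with earlier results of these data known.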

Additional observations from a re-analysis of the deposited data

Results flagged for a closer look

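Sets of values over 4 or 5 arrays were searched for 1 array that stood apart from the rest, for each pore or transport gene with enough values and for the medians and shares of the classes. Of 14 such sets 1 was found, where chance gives about 1 in 20, or 0.7. It was the median of the transport factor genes, at 2.29 on array 5, against -0.0028 to 0.54 on the other arrays, and it rests on 5 genes.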

How the results depend on the processing

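No paired analysis was possible because the 5 arrays form 1 group. The day as a random block was not run, since its correlation could not be estimated from 5 arrays of which 2 share a day, and leaving out an array of the fit over arrays 3 and 4 leaves 1 array. When an array was left out of the fit over 5 arrays, genes needed a value on 3 or more arrays, against 4 in the main fit. Without arrays 1, 2, 3, 4 and 5 in turn, 1206, 1098, 602, 1811 and 1915 genes were tested, against 725 in the main fit. Counts of calls over all genes stayed at 0 under the other settings tried, except as follows. Leaving out an array gave 0 to 68 calls in the channel reading and 0 to 80 in the other over 5 arrays, with the highest counts without array 3, and 1 and 2 in the channel reading without arrays 2 and 4. In the table of arrays 1 to 3 it gave 0 to 19 in the channel reading, the 19 without array 1, and with equal spread there was 1 call over arrays 3 and 4. NTF2 was the only pore or transport gene among any of these calls, at 2.88 in the other reading without array 3, and the cause was not tested.

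Leaving out an array moved CSE1 between -0.33 and 0.26 in the channel reading and between -0.36 and 0.24 in the other, NTF2 between -1.33 and 0.38 and between 1.17 and 2.88, and NUP188 between -0.54 and 0.31 and between -0.72 and 0.13. It moved PRP20 between -0.42 and 0.54 and between 0.42 and 1.38, and POM34 between -0.74 and -0.50 and between -0.059 and 0.18. NIC96 and NUP84 kept their signs. The sign also turned for CSE1 in the channel reading with spots set against their neighbours (-0.26) and in the other reading with equal spread (0.073), and for NTF2 in the channel reading with equal spread (0.36, and 0.14 also without array 3). Of the members named in the smaller fits, an addition made after seeing the data, CSE1 over arrays 1, 2 and 5 turned to 0.17 with equal spread and lay between -0.69 and 0.51 when an array was left out. NDC1 over arrays 3 and 4 turned to -0.45 against neighbours. In the table of arrays 1 to 3, GSP1 turned to -0.35 against neighbours and lay between -0.31 and 1.26 when an array was left out (other reading), and MTR10 lay between -0.24 and 1.68 (channel reading). The median of the 52 genes on array 1 was -0.090 when centred on the mean gene, which lies 0.22 above the median gene there, -0.12 against neighbours and -0.049 without GSP1 and NMD5, and on array 5 it was 0.20 against neighbours. The difference between the classes against neighbours was 3.86 on array 4 and 1.57 on array 5. Counting only genes with a value in all of their spots, the share of the 52 with a value was 13.5% on array 4 and 7.69% on array 5. For other genes, counted in the same way, it was 16.4% and 13.3%. The alternatives also differ in the genes or spots they keep, and the causes of these changes were not tested.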

Other observations

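On array 5, BRL1, a nuclear envelope gene that works with BRR6 and is not among the 52, lay at 3.17 with 5 genes higher, next to PRP20 at 3.43 with 3 higher. It lay at 0.47 on array 2 and 0.30 on array 3. BRL1 was named after its values were seen. SRC1 had 4 measured spots on array 5, between -0.17 and 3.47, around its mean of 1.70 there.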
